A study of Mus musculus with 8 samples.

Results

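The contractile apparatus of the mammary myoepithelial cell was followed through 10 genes, which were chosen by name: Acta2, Actg2, Myh11, Mylk, Myl9, Cnn1, Tagln, Tpm2, Oxtr and Myocd. They are 10 of the 18194 genes that 1 or more single-gene probe sets of the array name, and they are covered by 20 of 34958 such probe sets. Where a gene has several, its brightest probe set on average leads, and the others serve as a check.

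The 8 arrays fall into 4 groups of 2: KO CD29hi, WT CD29hi, KO CD29lo and WT CD29lo. KO stands for a germline C/EBPb knockout, so that every cell of those mice lacked the factor, and WT for wildtype. CD29hi names LIN-CD24+CD29hi cells and CD29lo names LIN-CD24hiCD29lo cells, both sorted from mammary epithelial cells. The glands came in 2 paired sets with 10 mice to a group, per the labels, so each array stands for pooled animals, and neither strain nor age of the mice is stated there. The arrays of a group are labelled biological replicates, and p-values measure only the spread between these arrays.

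Myoepithelial cells form the outer, basal layer of the mammary ducts and alveoli. They carry a smooth muscle type of actin and myosin, and oxytocin released during suckling makes them contract and eject milk. Contraction follows when calcium and calmodulin activate myosin light chain kinase, which phosphorylates the regulatory light chain, and the genes of this apparatus are classical targets of the serum response factor SRF and its myocardin-type coactivators. CD29 is the integrin beta-1 chain, and the CD29hi gate is known to hold the basal cells, the CD29lo gate the luminal cells.

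Values are log2 probe set values as deposited, and the array medians lie between 5.45 and 5.67. Each array has its own background, the level that 95% of its 27 bacterial control probe sets do not exceed, and these lie between 3.84 and 4.41. The deleted gene itself was lower in the knockout: the brighter Cebpb probe set read 8.60 and 9.38 in KO CD29hi, 11.95 and 12.25 in WT CD29hi, 9.23 and 8.89 in KO CD29lo, and 11.83 and 12.18 in WT CD29lo. The sort labels were checked on marker lists. For each list the summed level is the log2 of the sum of its linear values. The 8 basal markers, among them Krt5, Krt14, Krt17 and Trp63, summed to between 14.44 and 14.62 in KO CD29hi and between 12.46 and 12.50 in KO CD29lo. In WT they summed to between 14.58 and 14.74 in CD29hi and between 12.37 and 12.39 in CD29lo. At a limma adjusted p under 0.05, 4 of the 8 were called higher in CD29hi in KO and 5 in WT. Of all genes tested, 7.41% and 3.96% were. Cdh3 (0.475), Itgb1 (0.35), Itga6 (0.245) and Itgb4 (0.585) did not pass in KO. Itgb1, which encodes CD29 itself, read 11.90 and 11.65 in KO CD29hi against 11.43 and 11.42 in KO CD29lo. In WT it read 11.66 and 11.69 in CD29hi against 11.39 and 11.59 in CD29lo. Luminal markers (9 measured, among them Krt8, Krt18 and Esr1) ran the other way, with 14.21 to 14.28 in KO CD29hi against 15.11 to 15.23 in KO CD29lo, and 14.21 to 14.25 in WT CD29hi against 15.08 to 15.20 in WT CD29lo. All 8 basal markers nevertheless lay above the background in the CD29lo arrays too, and all 9 measured luminal markers did so in the CD29hi arrays.

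**Figure D1:**
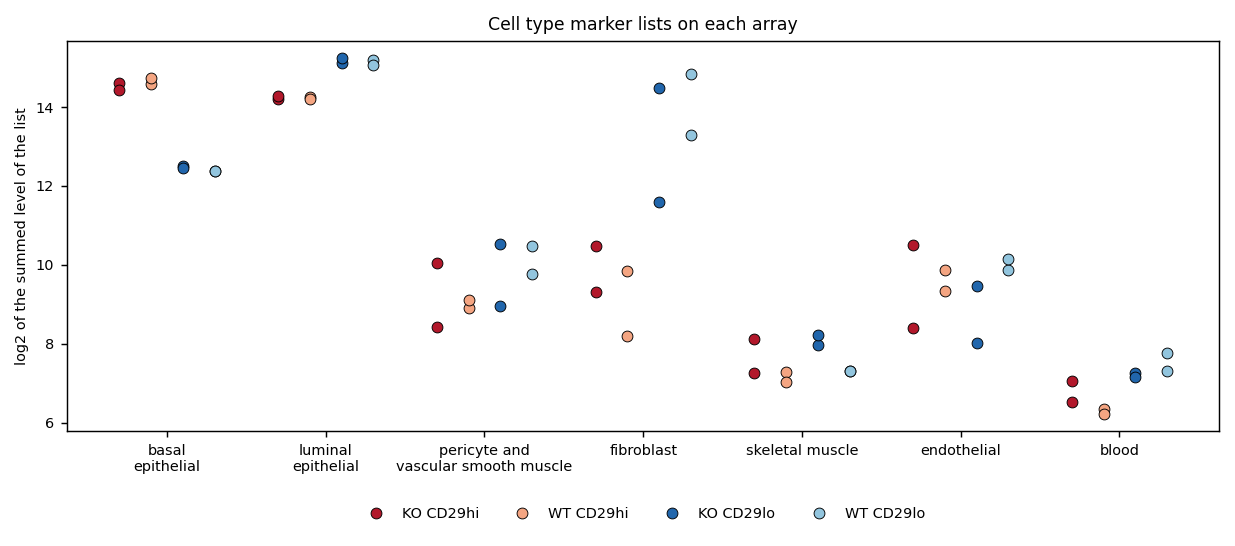
Summed level of 7 cell type marker lists on each of the 8 arrays. The vertical axis is the log2 of the summed linear values of a list, and each dot is 1 array. Basal markers are higher in both CD29hi groups, luminal and fibroblast markers in both CD29lo groups. Fibroblast markers lie between 11.58 and 14.47 in KO CD29lo and between 13.30 and 14.85 in WT CD29lo.

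Most contractile genes were far higher in the basal gate, CD29hi, in both genotypes. In KO, 9 of the 10 were called higher in CD29hi than in CD29lo, at a limma p adjusted by Benjamini-Hochberg over all 14598 genes tested of under 0.05, where 7.41% of those genes were called higher. In WT the same comparison called 9 of the 10, where 3.96% of all genes were called higher. None of the 10 was called lower in CD29hi, where 6.66% of all genes were in KO and 4.23% in WT. The 9 called genes ran from 2.84 to 5.86 on the log2 scale in KO and from 2.85 to 5.97 in WT. The median of all 10 was 4.59 in KO and 4.78 in WT, while the median over all genes tested was 0.03 in KO and 0.00 in WT. Both CD29hi arrays lay above both CD29lo arrays for 10 of 10 genes in KO and for 9 of 10 in WT, where 30.4% and 26% of all genes tested did so.

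**Figure D2:**
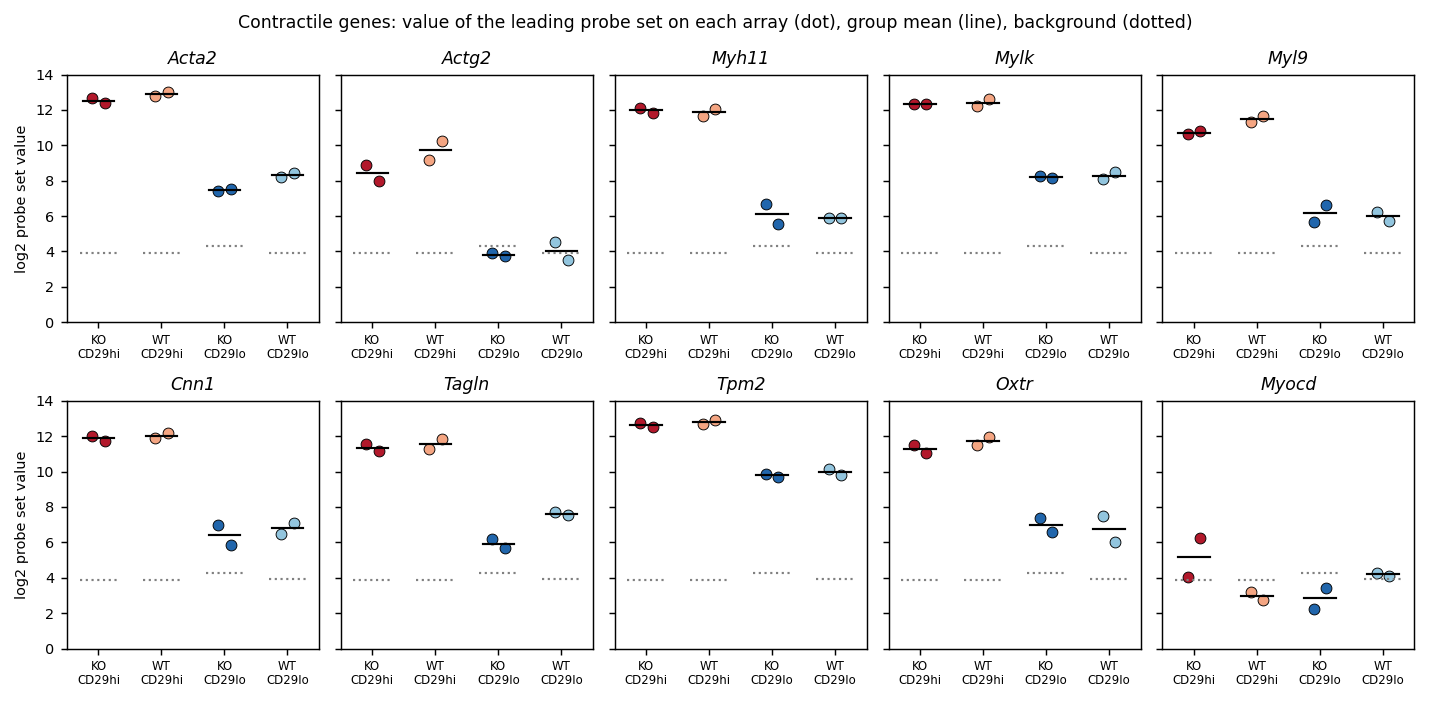
Log2 value of the leading probe set of each of the 10 genes. Each dot is 1 array, the solid line the mean of the 2 arrays, and the dotted line the mean background of the group. In 9 genes both CD29hi groups stand well above both CD29lo groups, and Myocd lies near the background except on 1 KO CD29hi array at 6.27.

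The thin filament actins come first. Acta2 encodes smooth muscle alpha actin, the usual marker of myoepithelial cells. It read 12.66 and 12.38 in KO CD29hi, 12.77 and 13.04 in WT CD29hi, 7.43 and 7.55 in KO CD29lo, and 8.22 and 8.44 in WT CD29lo. The 4 groups did not overlap, and both CD29lo groups stayed well above the background. CD29hi exceeded CD29lo by 5.03 ± 0.186 (SE) in KO, a 32.7-fold difference (limma adjusted p = 3.12e-05). In WT it did so by 4.58 ± 0.186, or 23.8-fold (limma adjusted p = 3.39e-05). The leading Acta2 probe set is of the type whose probes match several related transcripts, so a share of its signal from another actin cannot be told apart. Of the other actins, Actg2 had the same gate pattern, Actb (0.09 in KO and 0.13 in WT) and Actg1 (-0.10 in KO and 0.12 in WT) did not pass between the gates, and Acta1 read at most 3.61 in KO arrays and at most 4.53 in WT arrays. Of the 2 dim Acta2 probe sets, one differed between the gates by 2.33 in KO, where it passed, and by 2.00 in WT, where it did not (limma adjusted p = 0.0307 and 0.0763 over all probe sets). The other was above the background on no CD29lo array, and was at least 1.74-fold higher in CD29hi in KO without passing and at least 6.21-fold higher in WT, where it passed (limma adjusted p = 0.0778 and 0.0114 over all probe sets).

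Actg2 encodes the gamma actin of enteric smooth muscle, and its only probe set read 8.91 and 7.96 in KO CD29hi, 9.18 and 10.24 in WT CD29hi, 3.89 and 3.73 in KO CD29lo, and 4.56 and 3.49 in WT CD29lo. Both KO CD29lo arrays were at or below the background, so that in KO it was at least 17.7-fold higher in CD29hi (limma adjusted p = 0.00142). In WT, where 1 of the 2 CD29lo arrays was above the background, the difference was 5.69 ± 0.540 (limma adjusted p = 0.000956). Actg2 was thus close to the background in CD29lo cells of both genotypes.

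Sequences that match the SRF motif are shown for the 2 genes in whose promoter windows the search found any. RefSeq promoter windows (build GRCm38.p6) were at hand for 6 of the 10 genes: Acta2, Cnn1, Myl9, Mylk, Oxtr and Tpm2. The 250 bases before the transcript start that each window uses were searched on both strands for the CArG box, the sequence SRF binds. A CArG box stood in 1 of the 6 windows, that of Myl9, and in 1.47% of all 32851 windows. A looser form with exactly 1 C or G among the 6 inner bases, added after the windows had been seen, stood in 2 of the 6, those of Myl9 and Acta2, and in 7.25% of all windows. The 2 forms cannot coincide. TTNNGCAA, a C/EBP-like sequence in which N is any base, was in 0 of the 6 windows and in 9.56% of all. A match is a string of letters and no evidence of binding, and no match says only that these letters are not in this window.
The stretch upstream of Myl9 lies at chr2:156775214-156775407 on the plus strand, with the CArG box and the looser site in capitals, which begin 161 and 99 bases before the window's transcript start at position 156775464. The annotated gene extends further, and the stretch shown ends at the base before its first position, 156775408.
Myl9: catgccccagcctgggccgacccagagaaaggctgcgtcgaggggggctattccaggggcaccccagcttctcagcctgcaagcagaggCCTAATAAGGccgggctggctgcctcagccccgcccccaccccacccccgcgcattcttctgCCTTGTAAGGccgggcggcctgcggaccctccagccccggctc
The 2 looser sites of Acta2 lie on the minus strand at chr19:34255438-34255467 and chr19:34255388-34255417, each shown in capitals within 30 bases. They precede the transcript start of the window by 84 and 34 bases, but lie inside the annotated extent of the gene, which ends at position 34255585.
Acta2, first site: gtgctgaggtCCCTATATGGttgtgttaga
Acta2, second site: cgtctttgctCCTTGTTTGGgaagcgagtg

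The myosin motor and its switch followed the same pattern. Myh11, the smooth muscle myosin heavy chain, read 12.11 and 11.83 in KO CD29hi, 11.66 and 12.08 in WT CD29hi, 6.69 and 5.54 in KO CD29lo, and 5.91 and 5.89 in WT CD29lo. Its gate difference was 5.86 ± 0.374 in KO and 5.97 ± 0.374 in WT (limma adjusted p = 0.000185 and 0.000153). This was the largest difference among the 10 genes in each genotype, 57.9-fold and 62.7-fold, and it ranked 16th of the 14598 genes in KO and 15th in WT. The second Myh11 probe set, which is dimmer, gave 2.24 and 2.61 and passed in both genotypes.

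Myl9 encodes the regulatory light chain that the kinase phosphorylates. It read 10.62 and 10.79 in KO CD29hi, 11.32 and 11.64 in WT CD29hi, 5.66 and 6.64 in KO CD29lo, and 6.24 and 5.73 in WT CD29lo. The gate difference was 4.56 ± 0.366 in KO (limma adjusted p = 0.00033) and 5.50 ± 0.366 in WT (limma adjusted p = 0.000226). Both CD29lo groups overlapped each other, whereas in CD29hi the KO arrays lay below the WT arrays.

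Mylk, the myosin light chain kinase gene, read 12.32 on both KO CD29hi arrays, 12.23 and 12.59 in WT CD29hi, 8.26 and 8.17 in KO CD29lo, and 8.08 and 8.48 in WT CD29lo. The gate difference was 4.11 ± 0.199 in KO and 4.13 ± 0.199 in WT, or 17.2-fold and 17.5-fold (limma adjusted p = 8.94e-05 and 9.19e-05). The 2 other Mylk probe sets gave 3.97 and 6.08 in KO and 3.94 and 5.06 in WT, and both passed in both genotypes.

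Among the proteins that sit on the actin filament, Cnn1 encodes calponin, an inhibitor of the myosin ATPase. It read 12.02 and 11.75 in KO CD29hi, 11.88 and 12.19 in WT CD29hi, 6.98 and 5.88 in KO CD29lo, and 6.49 and 7.10 in WT CD29lo. CD29hi exceeded CD29lo by 5.46 ± 0.379 in KO (limma adjusted p = 0.000221) and by 5.24 ± 0.379 in WT (limma adjusted p = 0.000306).

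Tagln encodes transgelin (SM22 alpha), an actin-bundling protein of smooth muscle. It read 11.55 and 11.14 in KO CD29hi, 11.30 and 11.86 in WT CD29hi, 6.19 and 5.67 in KO CD29lo, and 7.69 and 7.56 in WT CD29lo. The gate difference was 5.42 ± 0.297 in KO, 42.7-fold, and 3.96 ± 0.297 in WT, 15.5-fold (limma adjusted p = 0.000111 and 0.000327). The KO CD29lo arrays lay below the WT CD29lo arrays, while the CD29hi arrays overlapped.

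Tpm2 encodes beta tropomyosin, which lies along the thin filament of smooth and skeletal muscle. It read 12.76 and 12.50 in KO CD29hi, 12.70 and 12.94 in WT CD29hi, 9.88 and 9.70 in KO CD29lo, and 10.17 and 9.78 in WT CD29lo. It had the smallest gate difference of the 9 called genes, 2.84 ± 0.173 in KO and 2.85 ± 0.173 in WT, 7.16-fold and 7.19-fold (limma adjusted p = 0.000169 and 0.000141). Of its 3 other probe sets 2 gave between 2.63 and 2.90. The dimmest one disagreed with them between the genotypes: it read 7.62 and 6.84 in KO CD29hi, 8.15 and 7.51 in WT CD29hi, 5.83 and 5.67 in KO CD29lo, and 4.19 and 4.16 in WT CD29lo. Its gate difference was thus 1.48 in KO (adjusted p = 0.0504 over all probe sets, limma) and 3.66 in WT (limma adjusted p = 0.00182).

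The receptor that starts contraction was higher in CD29hi too. Oxtr encodes the oxytocin receptor, and its brighter probe set read 11.53 and 11.06 in KO CD29hi, 11.53 and 11.94 in WT CD29hi, 7.38 and 6.56 in KO CD29lo, and 7.49 and 6.0 in WT CD29lo. The gate difference was 4.33 ± 0.488 in KO and 4.99 ± 0.488 in WT, 20.0-fold and 31.8-fold (limma adjusted p = 0.00121 and 0.000995). Its second probe set gave 5.45 in KO and 4.91 in WT and passed in both, with 1 KO CD29lo array as low as 1.94.

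Myocd, which encodes the SRF coactivator myocardin, was the exception. Its brighter probe set read 4.07 and 6.27 in KO CD29hi, 3.20 and 2.76 in WT CD29hi, 2.26 and 3.41 in KO CD29lo, and 4.28 and 4.09 in WT CD29lo. Both WT CD29hi arrays and both KO CD29lo arrays were at or below the background, and the mean over the 8 arrays was only just above the limit for testing, 3.51. In KO it was at least 1.85-fold higher in CD29hi without passing (limma adjusted p = 0.0773), and in WT it was at least 1.23-fold higher in CD29lo without passing (limma adjusted p = 0.407). Without KO CD29hi replicate 1, Myocd passed in KO (limma adjusted p = 0.038), with 1 CD29hi array left and both CD29lo arrays at or below the background. The second Myocd probe set lay below the limit for testing and was above the background on only 1 array, WT CD29hi replicate 1 at 4.06.

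**Figure D3:**
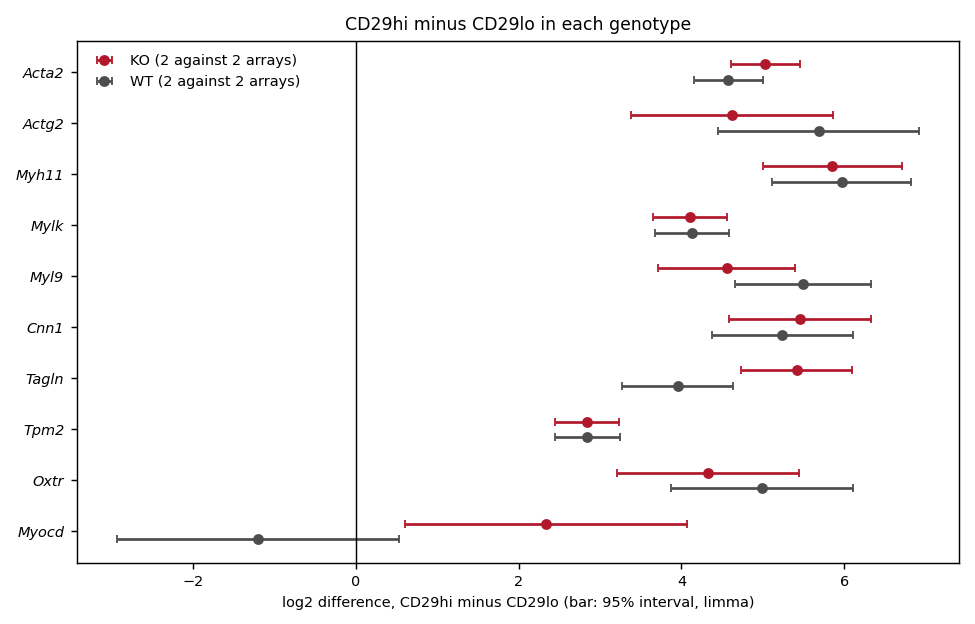
Log2 difference of CD29hi minus CD29lo for each gene in KO and in WT, with the 95% interval of the limma fit as a bar. All genes but Myocd lie between 2.84 and 5.97 in both genotypes. Of the 2 genes whose bars are widest, Actg2 reaches the background in CD29lo and Myocd in several groups.

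The pathway around these genes was basal in part. In CD29hi, 7.41% of all genes tested were called higher and 6.66% lower in KO, and 3.96% and 4.23% in WT. Of 14 thin filament partners 8 were called higher in CD29hi in KO and 7 in WT, with 0 called lower in either (medians 0.55 and 0.51). The leader was Lmod1, leiomodin, an actin nucleator of smooth muscle, which read 11.48 and 11.06 in KO CD29hi against 5.42 and 3.70 in KO CD29lo. In WT it read 10.86 and 10.97 in CD29hi against 6.05 and 3.82 in CD29lo. The difference of Lmod1 was 6.71 ± 0.746 in KO and 5.98 ± 0.746 in WT (limma adjusted p = 0.00117 and 0.00271). Smoothelin (Smtn, 3.04 and 4.31), the actin crosslinker filamin A (Flna, 2.48 and 1.61) and the calponin homologue Cnn2 (1.28 and 1.26) passed in both genotypes as well. So did the tropomyosin gene Tpm1 (0.73 and 0.50), the alpha actinin gene Actn1 (0.64 and 0.78) and Cnn3 (0.40 and 0.82), and the caldesmon gene Cald1 passed in KO (0.65). The non-muscle actins Actb and Actg1 did not pass in either genotype: Actb read between 13.18 and 13.26 in KO CD29hi against 13.12 and 13.14 in KO CD29lo.

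Of 12 genes of myosin and its regulators, 4 were called higher and 2 lower in KO CD29hi, against 7.41% and 6.66% of all genes tested. In WT CD29hi 1 was called higher and 1 lower, against 3.96% and 4.23% of all. The medians of the 12 were near 0 (-0.09 in KO and 0.04 in WT). The ones higher in KO were the non-muscle heavy chain gene Myh10 (2.24 ± 0.379, limma adjusted p = 0.00698), the myosin phosphatase subunit genes Ppp1r12a (0.55) and Ppp1r12b (1.59), and Ppp1r14a, which encodes a phosphatase inhibitor. Ppp1r14a was at or below the background in KO CD29lo and thus at least 3.20-fold higher in KO CD29hi (limma adjusted p = 0.0482). In WT Ppp1r12a was the one called higher (0.45). The light chain gene Myl12b was lower in CD29hi in both genotypes, by -1.58 ± 0.259 in KO and -1.45 ± 0.259 in WT. The heavy chain gene Myh14 was called lower in KO (-2.38 ± 0.591, limma adjusted p = 0.0319). In WT it read 7.20 and 6.49 in CD29hi against 8.87 and 9.03 in CD29lo and did not pass (limma adjusted p = 0.0698).

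Most genes between the oxytocin receptor and calcium did not pass between the gates, which does not show that the gates were alike. Of the 12 measured, 2 were called higher in KO CD29hi and 3 in WT CD29hi, against 7.41% and 3.96% of all genes tested. None was called lower, against 6.66% in KO and 4.23% in WT. Cacna1c, the L-type calcium channel subunit gene, differed by 3.95 ± 0.491 in KO and 2.94 ± 0.491 in WT (limma adjusted p = 0.00188 and 0.00919). Stim1, the calcium sensor of the endoplasmic reticulum, differed by 1.43 and 2.03. The calcium-activated potassium channel gene Kcnma1 was called in WT (3.16 ± 0.705, limma adjusted p = 0.0298). The G protein genes Gnaq and Gna11, which couple the receptor to phospholipase C, did not pass in either genotype.

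Among 11 regulators and cofactors of SRF, 4 were called higher in KO CD29hi, against 7.41% of all genes tested. In WT CD29hi 3 were called higher and 1 lower, against 3.96% and 4.23% of all. Mrtfa, a coactivator of the myocardin family, read 7.20 and 6.41 in KO CD29hi against 5.0 and 4.99 in KO CD29lo, and 7.12 and 7.35 in WT CD29hi against 4.69 and 4.75 in WT CD29lo. The difference of Mrtfa was 1.81 ± 0.393 in KO and 2.52 ± 0.393 in WT (limma adjusted p = 0.019 and 0.0071). The LIM-domain cofactor gene Fhl2 (2.33 and 2.14) and Tead1, a partner of YAP (0.90 and 0.73), passed in both, and Yap1 passed in KO (0.45). Klf4 was the one called lower, in WT (-0.79 ± 0.138, limma adjusted p = 0.0114). Srf itself did not pass: it read 11.56 and 11.49 in KO CD29hi against 11.39 and 11.41 in KO CD29lo, and 11.63 and 11.62 in WT CD29hi against 11.40 and 11.18 in WT CD29lo. Mrtfb, the relative of Mrtfa, did not pass either.

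Of the dense body and Z-disc genes, 9 were tested. In KO CD29hi 5 were called higher and in WT CD29hi 6, against 7.41% and 3.96% of all genes tested. Synpo2, which encodes an actin-binding protein of smooth and striated muscle, led with 4.07 ± 0.364 in KO and 3.76 ± 0.364 in WT. Nexn (2.61 and 2.86), Palld (1.65 and 1.89), Pdlim7 (1.55 and 1.70) and the integrin-linked kinase gene Ilk (1.2 in both) also passed in both genotypes, and Pdlim3 passed in WT (3.49 ± 0.616, limma adjusted p = 0.0115). Des, which encodes the muscle intermediate filament desmin, was at or below the background on all 8 arrays.

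**Figure D4:**
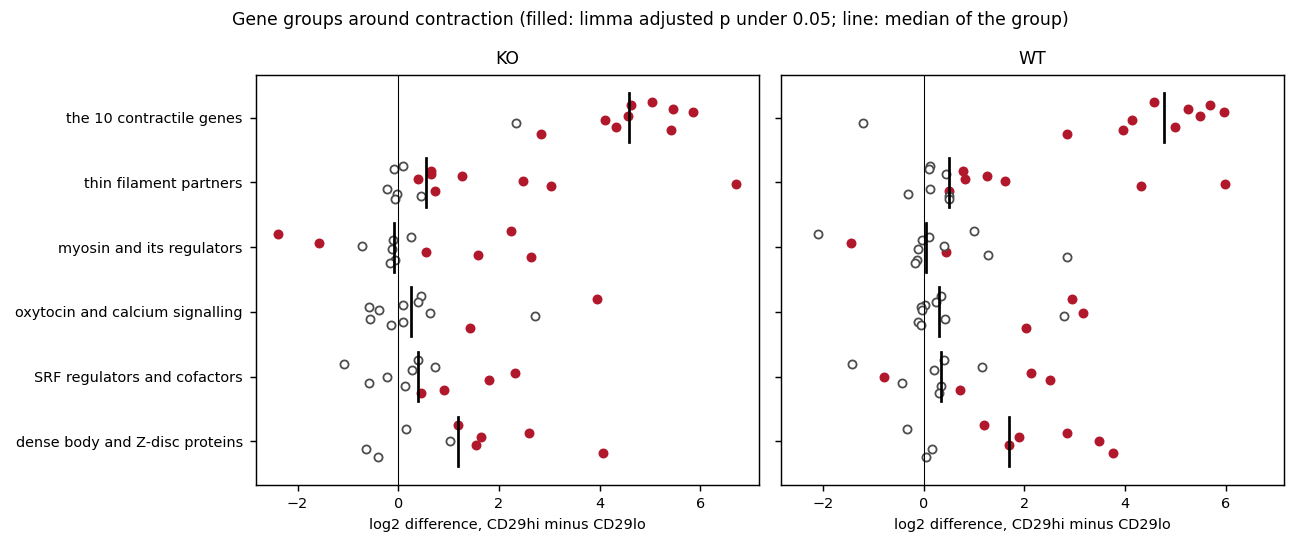
Log2 difference of CD29hi minus CD29lo for the 10 genes and 5 related groups, in KO (left) and WT (right). Each dot is a gene, filled where the limma adjusted p was under 0.05, and the vertical line is the median of the group. The 10 genes have medians of 4.59 and 4.78, and the dense body group has 1.2 and 1.7.

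Smooth muscle of vessels carries the same apparatus, so markers of other cells were set beside these results. Of 8 tested markers of pericytes and vascular smooth muscle, 0 were called higher in CD29hi and 1 lower in each genotype by limma. Of all genes tested, 7.41% were called higher and 6.66% lower in KO, and 3.96% and 4.23% in WT. The marker called lower in KO was Notch3 (-2.33 ± 0.432). An unadjusted limma p under 0.05 was found for 1 of the 8 in KO and 2 in WT. Of all 14598 genes tested, 4252 in KO and 3209 in WT had one. The summed level of the 9 listed markers lay between 8.43 and 10.05 in KO CD29hi, 8.92 and 9.12 in WT CD29hi, 8.97 and 10.52 in KO CD29lo, and 9.77 and 10.49 in WT CD29lo. Between 7 and 9 of the 9 markers were above the background on each array. Fibroblast markers were higher in CD29lo, with summed levels of 9.32 to 10.48 in KO CD29hi against 11.58 to 14.47 in KO CD29lo, and 8.21 to 9.84 in WT CD29hi against 13.30 to 14.85 in WT CD29lo. Their part in the contractile signal of CD29lo was not tested. Over the 8 arrays, skeletal muscle markers summed to between 7.04 and 8.21 and blood markers to between 6.23 and 7.77. In such bulk samples fewer basal cells and less RNA per cell cannot be told apart.

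The comparison of KO with WT asks whether the contractile genes depended on C/EBPb within a gate. None of the 10 genes passed in either gate. In CD29hi 0 of 10 were called by limma, where 0.0137% of all genes tested were called lower and 0% higher, and 2 of 10 (Actg2 and Myocd) had an unadjusted p under 0.05, against 7.84% of all. The median difference of the 10 was -0.21 in CD29hi, beside a median of -0.015 for all genes tested. Both KO arrays lay below both WT arrays for 3 of 10 genes, where 21.2% of all genes did so, and above them for 1 of 10, against 18.3%.

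In CD29hi the gene with the lowest KO value relative to WT was Actg2, whose KO arrays at 8.91 and 7.96 lay below the WT arrays at 9.18 and 10.24. The difference was -1.28 ± 0.540 with a 95% interval of -2.51 to -0.04 (limma adjusted p = 0.629). Myl9 differed by -0.78 ± 0.366, with an interval of -1.61 to 0.06 (limma adjusted p = 0.686), and Acta2 by -0.39 ± 0.186, with an interval of -0.81 to 0.04 (limma adjusted p = 0.694). On the leading probe sets, the arrays of these 3 genes did not overlap between KO and WT. Of the 2 dim Acta2 probe sets, one overlapped (-0.34) and the other did not (-1.47, limma adjusted p = 0.644 over all probe sets). Actg2 differed by -0.75 without WT CD29hi replicate 2 and by -1.81 without replicate 1.

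On the leading probe sets of the other filament genes and of Oxtr, KO and WT arrays overlapped in CD29hi. The second probe sets of Oxtr (-0.675) and Myh11 (0.38) did not overlap, and neither passed. By its leading probe set Mylk had the interval -0.55 to 0.37 and Tpm2 -0.59 to 0.21. Cnn1 had -1.02 to 0.72, Tagln -0.91 to 0.44, Myh11 -0.76 to 0.96 and Oxtr -1.56 to 0.68. Such intervals do not show that the genotypes were alike. WT CD29hi replicate 2 gave the highest of the 4 CD29hi values for 8 of the 10 genes, against 28.2% of all genes tested. KO CD29hi replicate 2 gave the lowest for 6 of 10, against 24.5% of all. Summed levels of the basal list were 14.58 and 14.74 in WT CD29hi replicates 1 and 2. They were 14.62 and 14.44 in KO CD29hi replicates 1 and 2.

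In CD29lo also 0 of 10 genes were called by limma, where 0.0137% of all genes tested were called lower, and 2 of 10 (Acta2 and Tagln) had an unadjusted p under 0.05, against 6.68% of all. The median difference was -0.20, against -0.06 for all genes. Both KO arrays lay below both WT arrays for 3 of 10 genes (Acta2, Tagln and Myocd), where 19.6% of all genes did so, and above them for 0 of 10, against 14.7%.

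Tagln was the gene with the smallest p. It averaged 5.93 ± 0.368 in KO CD29lo and 7.63 ± 0.0919 in WT CD29lo (SD, n = 2 each), and the groups did not overlap. The difference was -1.70 ± 0.297 with an interval of -2.37 to -1.02 (limma adjusted p = 0.307). Acta2 averaged 7.49 ± 0.0849 in KO CD29lo and 8.33 ± 0.156 in WT CD29lo (SD, n = 2 each). It differed by -0.84 ± 0.186 with an interval of -1.27 to -0.41 (limma adjusted p = 0.495). Of the 2 dim Acta2 probe sets, one overlapped between KO and WT in CD29lo (-0.665), and the other was above the background on no CD29lo array. Of the 8 basal markers 5 had a higher and 3 a lower mean in KO CD29lo than in WT CD29lo, and 0 were called by limma. Krt14 read 8.65 and 7.88 in KO CD29lo against 8.03 and 7.55 in WT CD29lo, and Krt5 read 7.66 and 7.40 in KO CD29lo against 7.13 and 6.75 in WT CD29lo. Krt17 read 8.24 and 7.51 in KO CD29lo against 8.15 and 8.13 in WT CD29lo, and Trp63 read 6.23 and 4.35 in KO CD29lo against 5.91 and 5.6 in WT CD29lo.

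Summed fibroblast markers were 11.58 on KO CD29lo replicate 1 and 14.47 on replicate 2, against 13.30 and 14.85 on the WT CD29lo replicates. The 2 KO arrays, which differed by that much, read Tagln at 6.19 and 5.67 and Acta2 at 7.43 and 7.55. All 8 fibroblast markers had a KO value below the WT value in CD29lo, with 0 called and 0 at an unadjusted p under 0.05, and all 5 endothelial markers did so too, with summed levels of 8.03 and 9.46 in KO CD29lo against 9.88 and 10.14 in WT CD29lo. The part of these cells in the difference of Tagln and Acta2 was not tested. The CD29lo arrays numbered 2 had more fibroblast marker signal in each genotype. With both left out, Tagln differed by -1.50 and Acta2 by -0.79. The CD29lo arrays left, 1 per genotype, still differed in summed fibroblast markers, at 11.58 in KO and 13.30 in WT. This fit therefore cannot separate the genotype from these cells.

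On the leading probe sets, the arrays of the other filament genes and of Oxtr overlapped in CD29lo. Mylk had the interval -0.52 to 0.39, Tpm2 -0.58 to 0.21, Myh11 -0.64 to 1.07, Myl9 -0.67 to 1.00, Cnn1 -1.23 to 0.50 and Oxtr -0.89 to 1.34. For Actg2 both KO arrays were at or below the background, and 1 of 2 WT arrays was above it, so no fold is given. The second brightest Mylk probe set, in contrast with the leading one, read 4.18 and 4.30 in KO CD29lo against 4.94 and 5.90 in WT CD29lo, a difference of -1.18 that did not pass.

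**Figure D5:**
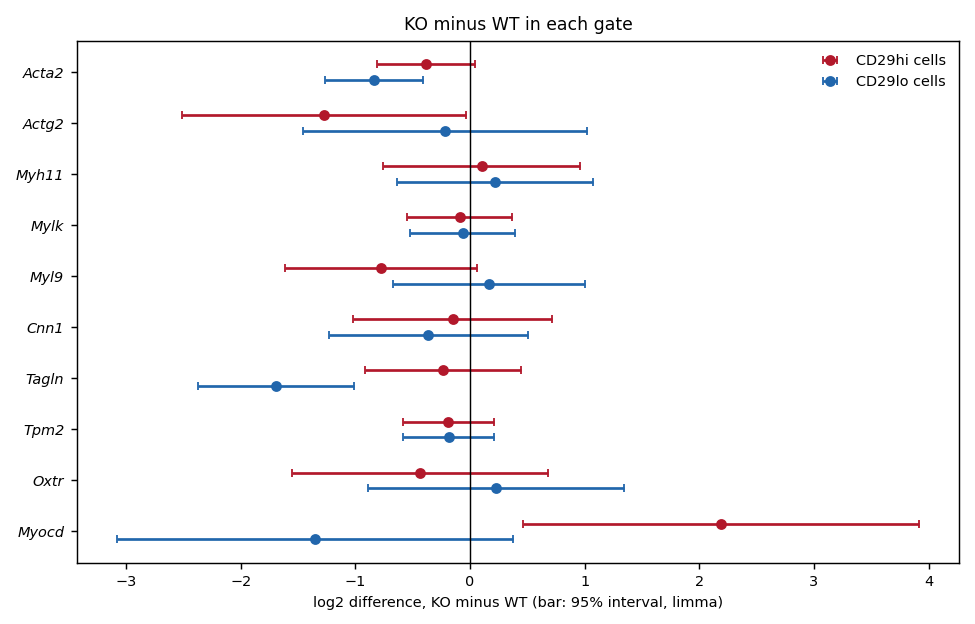
Log2 difference of KO minus WT for each gene in CD29hi and in CD29lo, with the 95% interval of the limma fit as a bar. None of the 10 genes passed after adjustment over all genes tested. Tagln and Acta2 in CD29lo lie left of 0 at -1.70 and -0.84, and Actg2 in CD29hi at -1.28. Myocd lies right of 0 in CD29hi, and left of it in CD29lo with a bar (-3.08 to 0.38) that crosses 0. In each pair 1 Myocd group is at or below the background.

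Averaged over both gates, Tagln differed by -0.97 ± 0.210 and Acta2 by -0.61 ± 0.131 (limma adjusted p = 0.228 and 0.227). Again 0 of the 10 were called by limma, where 0.0617% of all genes tested were called lower and 0.00685% higher, and 2 of 10 had an unadjusted p under 0.05, against 9.27% of all. The test of whether the genotype difference itself differed between the gates called 0 of 10, as it called 0% of all genes, with 2 of 10 and 4.95% at an unadjusted p under 0.05. The 2 were Tagln, with a difference between the contrasts of 1.46 ± 0.419, and Myocd (limma adjusted p = 0.961 for each).

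In the gene groups around the 10, 0 were called in either gate by limma. Of all genes tested, 0.0137% were called lower and 0% higher in each gate. The SRF list held Klf4, a repressor of smooth muscle genes in vascular cells, which read 11.28 and 11.17 in KO CD29hi against 10.31 and 10.28 in WT CD29hi (0.93 ± 0.138, limma adjusted p = 0.147). In CD29lo it read 11.53 and 11.35 in KO against 10.98 and 11.18 in WT (0.36 ± 0.138, limma adjusted p = 0.683). Srf differed by 0.11 ± 0.116 in CD29lo and did not pass. Pdlim3 read 7.73 and 8.95 in KO CD29hi against 9.06 and 10.77 in WT CD29hi (-1.58 ± 0.616, limma adjusted p = 0.588). Flna had -0.90 ± 0.221 (limma adjusted p = 0.548) in CD29lo, with KO arrays at 8.73 and 8.44 below the WT arrays at 9.51 and 9.46. Myh10 read 8.22 and 7.15 in KO CD29lo against 8.54 and 9.11 in WT CD29lo (-1.14 ± 0.379, limma adjusted p = 0.658).

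The genes whose profile over the 8 arrays was most like the mean of the 10, by Pearson correlation, were Fryl (0.998), Bmp7 (0.997), Krt17 (0.996), Moxd1 (0.996) and Stox2 (0.996). All of these share the gate difference and the 8 arrays, and the values carry no test. Bmp7, a bone morphogenetic protein gene, read 10.21 and 10.23 in KO CD29hi against 4.10 and 4.08 in KO CD29lo, where both arrays were at or below the background. In WT it read 10.18 and 10.30 in CD29hi against 4.30 and 4.71 in CD29lo. After the mean of each gate was taken off both, Pbrm1 (0.981), Zfp84 (0.960) and Snn (0.951) came closest, followed by 4930430F08Rik (0.95) and Secisbp2l (0.945). Snn read 5.17 and 5.05 in KO CD29lo against 6.92 and 6.32 in WT CD29lo.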

How the data were processed

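RNA from 8 sorted samples was amplified with a NuGEN FFPE kit and labelled by the Affymetrix protocol, per the labels' protocols. Each deposited value is the log2 signal of 1 probe set on 1 array, none below 0; the scale was read from the values. How the authors normalized them is not given in the sources used here, and nothing further was done to them. With 2 arrays per group the number of arrays limits the precision.

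Of 45101 probe sets, 34958 name 1 gene in the 2016 platform annotation. Genes were represented by the probe set of highest mean, and those with a mean of 3.51 (the 25th percentile of all probe sets) or less were not tested, which left 14598. All 10 genes stayed in. Differences were tested two-sided with limma 3.58.1 in R 4.3.3 (lmFit on 4 groups, eBayes with a trend), with 4 residual and 4.31 prior degrees of freedom, and intervals are at 95%. The fit was tested on simulated data. Where neither array of the dimmer group exceeded the background, a fold is a lower bound ("at least").

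The genes, the related lists and the marker lists were chosen with earlier results of these data known. The text names the 10 genes, the related genes that passed, a selection of those that did not, and the 5 genes most alike by correlation. Between KO and WT the selected genes were not always those with the smallest p of their list. Listed genes with no value were not analysed here.

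Alternatives were quantile normalization, no filter or one at the 50th percentile, every probe set, the mean of probe sets, no trend, weights for arrays, a fit of the compared groups alone, blocks by replicate number or by gland pool, values raised to at least 4, and leaving out each array. Leaving out both CD29lo arrays numbered 2 was added after the data had been seen. Figures were drawn with matplotlib 3.10.9.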

Additional observations from a re-analysis of the deposited data

Results flagged for a closer look

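On the brighter probe set, the Myocd arrays of KO and WT did not overlap in either gate, and stood in opposite order. Among CD29hi arrays they read 4.07 and 6.27 in KO against 3.20 and 2.76 in WT. Among CD29lo arrays they read 2.26 and 3.41 in KO against 4.28 and 4.09 in WT. The difference between the contrasts was 3.54 ± 1.07, and its test did not pass (limma adjusted p = 0.961). Both WT CD29hi arrays and both KO CD29lo arrays were at or below the background, so this value has no exact size: KO was at least 2.43-fold higher in CD29hi, and no fold can be given in CD29lo. The fitted difference between the contrasts was 2.44 without KO CD29hi replicate 2, the array with the highest value. Among the CD29hi arrays, KO CD29hi replicate 2 also had the highest summed levels of the pericyte and vascular smooth muscle list and of the endothelial list. They were 10.05 and 10.50, against 8.43 to 9.12 and 8.39 to 9.86 on the others. The part of such cells in the Myocd value was not tested.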

How the results depend on the processing

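The gate count of 9 of the 10 genes held in WT under every alternative run, and in KO it was 9 or 10, with Myocd as the tenth when KO CD29hi replicate 1 was left out. The count of the 10 genes called between KO and WT was 0 under every alternative run. Myocd fell below the filter and was not tested with the filter at the 50th percentile or with the mean of probe sets. In those runs the counts cover the other 9 genes. The labels name 2 paired sets of glands but do not say which replicate number belongs to which set, and same-numbered deviations correlated at 0.0056 in CD29hi and 0.321 in CD29lo. In the fit with a replicate block, the count of all genes called in the average over both gates was 16, beside 10 without it, and no call among the 10 genes changed. That count was 2 with the filter at the 50th percentile, 4 without a trend, 6 with every probe set or with values raised to at least 4, and 5 without both CD29lo arrays numbered 2. Leaving out 1 array each gave 3 to 21. In CD29hi the count of all genes between KO and WT, 2, became 1 with the stricter filter, without a trend or with raised values, 0 with the mean of probe sets, 4 with only the arrays compared, and 0 to 3 leaving 1 array out. In CD29lo it became 1 with the stricter filter or without a trend, 0 with only the arrays compared, with raised values or without both arrays numbered 2, and 0 to 2 leaving 1 array out. The count between the gates in KO, 2053, was 722 to 1913 leaving 1 array out. In WT, 1196 became 785 without a trend and 512 to 1383 leaving 1 array out. Uncalled differences of KO and WT changed sign. In CD29lo without both arrays numbered 2, Mylk was 0.18, Myl9 -0.58, Cnn1 0.49 and Oxtr -0.11, and with the mean of probe sets Tpm2 was 0.21 and Oxtr -0.49. Leaving out 1 array in CD29hi, Myh11 ran from -0.11 to 0.31, Mylk from -0.27 to 0.09, Cnn1 from -0.31 to 0.005 and Tagln from -0.52 to 0.045. In CD29lo, Actg2 ran from -0.75 to 0.32, Myh11 from -0.36 to 0.79, Mylk from -0.27 to 0.14, Myl9 from -0.33 to 0.66, Cnn1 from -0.92 to 0.19, Tpm2 from -0.38 to 0.01 and Oxtr from -0.52 to 0.97. The cause of these changes was not tested, and a group with 1 array left was assumed to vary like the others. Actg2 in CD29lo and Myocd are limited by signal near the background.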

Other observations

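Between KO and WT, 0.0137% of all genes tested were called lower and 0% higher in each gate by limma. Among the 12 measured genes of oxytocin and calcium signalling, 0 were called in either gate. In this signalling group an unadjusted limma p under 0.05 was found for 1 gene in CD29hi (Plcb1), against 7.84% of all. In CD29lo the group had 2 (Kcnma1 and Cacna1c), against 6.68% of all. Of its channel genes, Kcnma1 read 7.08 and 6.54 in KO CD29lo against 4.32 and 2.22 in WT CD29lo, a difference of 3.54 ± 0.705 (limma adjusted p = 0.372), and 7.78 and 7.08 in KO CD29hi against 5.88 and 6.98 in WT CD29hi. Cacna1c ran the other way, with 3.41 and 4.72 in KO CD29lo against 5.63 and 6.48 in WT CD29lo (-1.99 ± 0.491, limma adjusted p = 0.548), and 7.94 and 8.08 in KO CD29hi against 8.97 and 9.02 in WT CD29hi. Plcb1, a phospholipase C gene, read 6.93 and 6.73 in KO CD29hi against 5.98 and 5.89 in WT CD29hi (0.895 ± 0.337, limma adjusted p = 0.571). In CD29lo it read 6.73 and 6.76 in KO against 6.24 and 5.86 in WT (0.695 ± 0.337, limma adjusted p = 0.753). The arrays of KO and WT did not overlap in either gate for Kcnma1, Cacna1c and Plcb1. Of all genes tested, 18.3% had both KO arrays higher and 21.2% lower in CD29hi, and 14.7% and 19.6% in CD29lo. KO and WT arrays overlapped in both gates for Orai1 (-0.40 in CD29hi and 0.59 in CD29lo) and Kcnmb1 (-0.16 in CD29hi, and at or below the background on all CD29lo arrays). The dimmest Tpm2 probe set differed by 1.58 between KO and WT in CD29lo (limma adjusted p = 0.642 over all probe sets), where the other 3 differed by between -0.36 and -0.18.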
